A study of Mus musculus with 12 samples.

Results

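The genes described here encode the proteins of the cytosolic ribosome. They were taken by symbol from the platform annotation, as every symbol that begins with Rpl or Rps followed by the number, p or a of a ribosomal protein name, without the Rps6k kinases and without pseudogene symbols. The rule found 62 genes, measured by 94 probes, among 16255 features on the array. A feature is a gene symbol with its probes averaged, or a probe without a single symbol. The array held 58 of the 62 genes with a value on at least 3 of the 4 arrays of every comparison, and these were tested beside 14729 features in all. Rpl23, Rpl36al, Rpl9 and Rps27l had too few values. By its symbol the rule also takes in Rps19bp1, which binds Rps19, and Rpl7l1, a relative of Rpl7 known from ribosome assembly.

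The ribosome is built from a large subunit, which joins amino acids, and a small subunit, which reads the messenger RNA. Most of their proteins are needed in equal numbers. The messenger RNAs of nearly all ribosomal proteins begin with a run of pyrimidines through which their translation is controlled together. In the testis some ribosomal proteins have a germ cell form: the X chromosome is silenced during meiosis, and in mouse the autosomal paralog Rpl39l is used in male germ cells beside the X-linked Rpl39, which lines the tunnel through which new proteins leave the ribosome.

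Testis RNA was compared on 12 two-colour cDNA arrays. Channels held RNA from Wobbler mice that carry a modifier, from Wobbler mice, or from wildtype mice. All were males on a Castaneus background, and each channel was labelled as a pool of 3 animals. The sources used here give neither ages nor the modifier's identity. Wobbler is a recessive mutation of Vps54, which belongs to a complex that receives vesicles at the Golgi, and homozygous males are sterile. No probe is named for Vps54, so the labels could not be checked against it. Each of the 3 pairs of genotypes was hybridised on 4 arrays, with the first-named genotype in Cy5 on replicates 1 and 2 and in Cy3 on replicates 3 and 4. The labelling protocol also speaks of a reference pool of 6 control animals, which the channel labels do not show, and the channel labels were followed. No label says that the arrays of a pair came from separate pools, so the p-values cover differences among arrays, and these may be technical.

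Values are log2 ratios of the first-named genotype over the second, so -1 stands for a halving. Which sign means higher was not shown by the data, since it rests on the array titles and on reading the deposited values as Cy5 over Cy3. Usable spots numbered 18325 to 19584 per array. Replicate 2 of Wobbler over wildtype had the widest spread, and 12.5% of its usable spots exceeded 2. Between arrays of 1 comparison the ratios correlated only weakly over all features, with r from -0.04 to 0.18. Tested across all features with limma and Benjamini-Hochberg adjustment at 0.05, 108 features passed in modifier over wildtype, 61 in modifier over Wobbler and 45 in Wobbler over wildtype.

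Both genes that passed the test, the parent gene of one of them, Rps7 and Rps27, which had small p in modifier over wildtype, and Rpl26, which had the opposite sign, are shown with the sequence around their transcription start, since ribosomal protein promoters share short motifs. Rps29 is not shown. RefSeq promoter windows of GRCm38.p6, 250 bases before to 50 after a start, were found for 53 of the 62 genes, and some genes have several. The motif CCGGAAG, a core bound by ETS factors such as GABP, was searched on both strands, where its reverse reads CTTCCGG. The letters CTTTCC, which often stand in the pyrimidine-rich start, were searched on the coding strand. Neither motif contains the other. CCGGAAG stood in 24 of 62 ribosomal protein windows (38.7%), against 2910 of 32851 windows of all genes (8.9%). CTTTCC stood in 24 of 62 (38.7%), against 4644 of 32851 (14.1%). Below, 100 bases before to 30 after the start are given 5′ to 3′ along the gene, with either motif in capitals where it lies whole in this stretch. They are Rpl39l (chr16:10170128-10170257, plus strand), Rpl39 (chrX:37085193-37085322, minus strand), Rps27 (chr3:90213619-90213748, minus strand), Rps7 (chr12:28635924-28636053, minus strand), Rpl26 (chr11:68901466-68901595, plus strand) and Rps18 (chr17:33955636-33955765, minus strand).
Rpl39l: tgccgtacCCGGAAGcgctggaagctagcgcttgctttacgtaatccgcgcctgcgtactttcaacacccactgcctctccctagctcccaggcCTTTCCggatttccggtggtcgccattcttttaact
Rpl39: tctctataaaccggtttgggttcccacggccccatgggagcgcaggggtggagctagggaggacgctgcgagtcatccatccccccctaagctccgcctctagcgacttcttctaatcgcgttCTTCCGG
Rps27: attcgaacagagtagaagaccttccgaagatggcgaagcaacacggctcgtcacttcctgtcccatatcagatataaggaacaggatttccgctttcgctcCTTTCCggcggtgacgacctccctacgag
Rps7: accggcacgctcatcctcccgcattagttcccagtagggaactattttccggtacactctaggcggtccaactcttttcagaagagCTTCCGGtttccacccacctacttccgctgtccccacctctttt
Rpl26: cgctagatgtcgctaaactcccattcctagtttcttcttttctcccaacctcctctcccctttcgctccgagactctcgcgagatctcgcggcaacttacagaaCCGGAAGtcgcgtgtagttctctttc
Rps18: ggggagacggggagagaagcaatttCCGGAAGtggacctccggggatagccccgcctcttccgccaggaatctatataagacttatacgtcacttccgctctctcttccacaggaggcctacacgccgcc
In these stretches Rpl39l carried both motifs, Rps27 carried CTTTCC, and the other genes carried CCGGAAG or its reverse. The start used for Rpl39l lies inside its gene body, which begins at chr16:10170197. A match describes letters and no binding, and no match says only that the letters are not in this window. Genes with and without a motif were not compared for their ratios.

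The first comparison asks how testis with the modifier differs from wildtype testis. Most ribosomal protein genes had slightly negative log2 ratios, and 1 of them, Rpl39l, passed the test. Of 58 genes, 1 was lower (1.72%), 0 were higher and 57 did not pass, where 0.733% of all features were called, 0.699% lower and 0.0339% higher. At an unadjusted p under 0.05, 12 genes were lower, against 5.22% of all features, and 1 was higher, against 2.11%. The genes had a median log2 ratio of -0.22, against 0.01 for all features. Negative ratios were found for 48 of the 58 (82.8%), against 47.5% of all features. The median SE of these genes in the fit was 0.14, against 0.21 for all features. A smaller SE gives a smaller p for the same ratio. The shares by p, or by side on every array, thus set these genes beside features with a larger SE.

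The displacement was seen on each array taken alone. The median of the ribosomal protein genes lay below the median of all features by 0.30, 0.18, 0.25 and 0.19 on the log2 scale on replicates 1 to 4 of modifier over wildtype. In signed form the differences averaged -0.23 ± 0.06 (SD, n = 4 arrays). Both dye orientations gave it, with a mean of -0.24 on the arrays with the modifier in Cy5 and -0.22 on those with the modifier in Cy3. On replicate 1, 52 of the 58 genes lay below the array's median, and on replicate 4, 42 of them did. Of the 58 genes, 32 lay below the array median on every array (55.2%), against 13.5% of all features, and 2 lay above it on every array (3.45%), against 11.1%. In a check chosen after the data were seen, 33 to 37 genes lay below the median on the remaining 3 arrays when each array was left out in turn (56.9% to 63.8%), against 18.1% to 18.9% of all features. A count over 3 arrays cannot be smaller than that over 4, so these counts were bound to be at least 32.

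**Figure D1:**
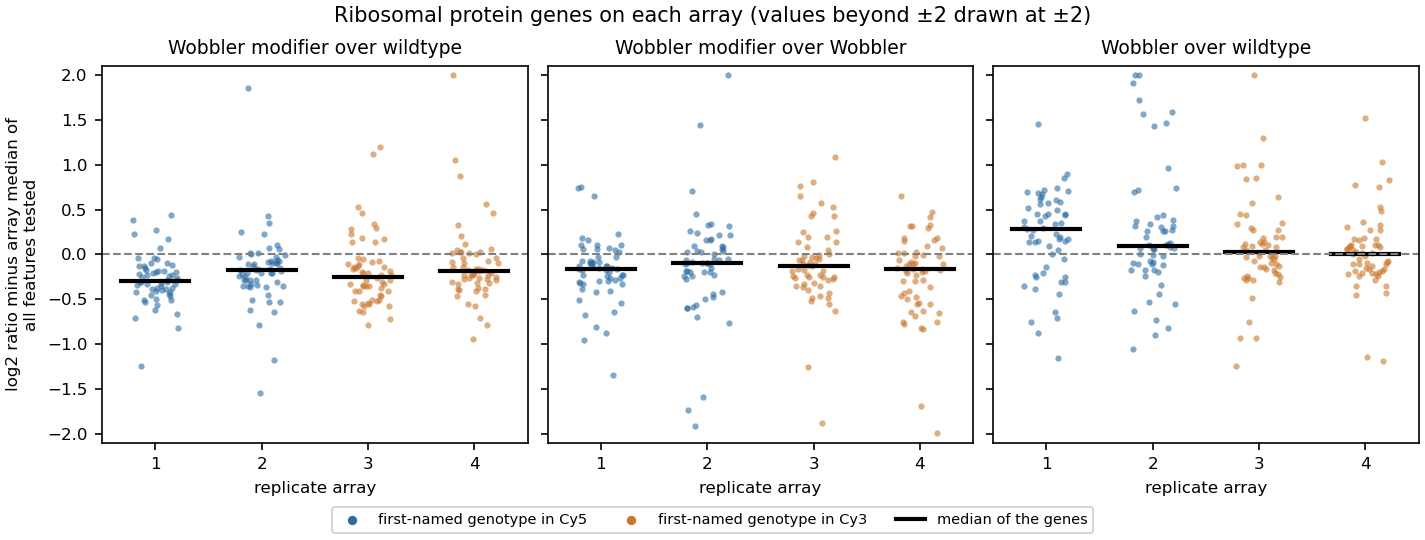
Log2 ratio minus the array's median over all features tested (vertical axis) for each ribosomal protein gene (points) on the 4 replicate arrays of each comparison (horizontal axis), with the genes' median as a black bar and 0, the median of all features, as a dashed line. The bars lie at -0.30 to -0.18 in modifier over wildtype, at -0.17 to -0.09 in modifier over Wobbler and at 0.01 to 0.28 in Wobbler over wildtype.

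Rpl39l (gene body chr16:10170197-10174911 in GRCm38.p6), the germ cell form of Rpl39, had log2 ratios of -0.65, -0.48, -0.97 and -1.04 on the 4 arrays of modifier over wildtype. All arrays were negative, and the arrays with the modifier in Cy3 were the lower pair. It fell by 0.79 ± 0.11 on the log2 scale (SE of the fit, n = 4 arrays), 1.73-fold, with a limma adjusted p of 0.00893. It was the lowest of the 58 genes, and 1.84% of all features were lower. The call was lost without any 1 of these 4 arrays, with adjusted p from 0.0544 to 0.103 and log2 ratios from -0.81 to -0.75. It was also lost without the dye term (adjusted p = 0.113) and when the 4 arrays were fitted alone (adjusted p = 0.13). The gene has 1 probe.

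Rpl39, its X-linked parent, had log2 ratios of -0.46, -0.40, -0.71 and -0.65 and a fitted value of -0.56 ± 0.13 (SE), with an adjusted p of 0.123. Its arrays were as uniform in sign as those of Rpl39l, at a smaller size. Within each array, Rpl39l minus Rpl39 was -0.20, -0.08, -0.26 and -0.39 on the log2 scale. The mean difference was -0.23 ± 0.13 (SD, n = 4 arrays), negative on 4 of 4, with an exact two-sided sign-flip permutation p of 0.125, the smallest that 4 arrays allow. Rpl39l lay 0.57 below the median of the other ribosomal protein genes (difference -0.57 ± 0.13, SD, n = 4 arrays), and Rpl39 lay 0.34 below it (difference -0.34 ± 0.04). How far the probe of either gene reads the transcript of the other was not tested.

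The genes next by p, beside Rpl39, did not pass. Rps29, a zinc-binding protein of the small subunit, had -0.28, -0.23, -0.76 and -0.55 (fitted -0.45 ± 0.10 SE, adjusted p = 0.0925). Rps7, which in human cells binds the p53 regulator MDM2 when it is outside the ribosome, had -0.26, -0.51, -0.74 and -0.49 (fitted -0.50 ± 0.12 SE, adjusted p = 0.123). Rps27, another zinc-binding protein of the small subunit, had -0.25, -0.22, -0.82 and -0.67 (fitted -0.49 ± 0.12 SE, adjusted p = 0.138). Every array of these genes was negative, and for Rps29 and Rps27 the arrays with the modifier in Cy3 were clearly the lower ones. Rpl22l1, the paralog of Rpl22, was the most uniform, with -0.29, -0.38, -0.38 and -0.33 (fitted -0.34 ± 0.10 SE, adjusted p = 0.273). All of Rps29, Rps7, Rps27, Rpl39 and Rpl22l1 passed the test when arrays were scaled to equal spread or weighted by their spread, with adjusted p from 0.00265 to 0.0318.

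Rpl26, a large-subunit protein that in human cells also binds p53 messenger RNA, went the other way. Its log2 ratios were 0.54, 0.56, 0.27 and 0.37 in modifier over wildtype, positive on every array (fitted 0.44 ± 0.14 SE, adjusted p = 0.338). In modifier over Wobbler it had 0.82, 0.89, 0.12 and 0.62 (fitted 0.61 ± 0.14 SE, adjusted p = 0.124). It lay above 95.77% of all features in modifier over wildtype and above 95.34% in modifier over Wobbler. The other gene above the array median on every array of modifier over wildtype was Rps12, at 0.40, 0.14, 0.34 and 0.95.

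Split by symbol, the genes of both subunits had similar medians in this comparison. The 35 tested genes named Rpl had a median log2 ratio of -0.23, with 28 negative. The 23 named Rps had -0.20, with 20 negative. Rpl7l1 is counted with the Rpl genes and Rps19bp1 with the Rps genes. The X-linked genes were Rpl39 at -0.56, Rpl36a at -0.22 and Rps4x at -0.22, the last pair close to the median of all 58. The acidic stalk, which recruits elongation factors to the large subunit, gave -0.26 for Rplp0, -0.23 for Rplp2 and 0.00 for Rplp1. Rpsa, the laminin receptor protein of the small subunit, gave -0.21. Of 12 tested genes whose human counterparts are mutated in Diamond-Blackfan anaemia, 11 were negative, with a median of -0.23 and 0 called.

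**Figure D2:**
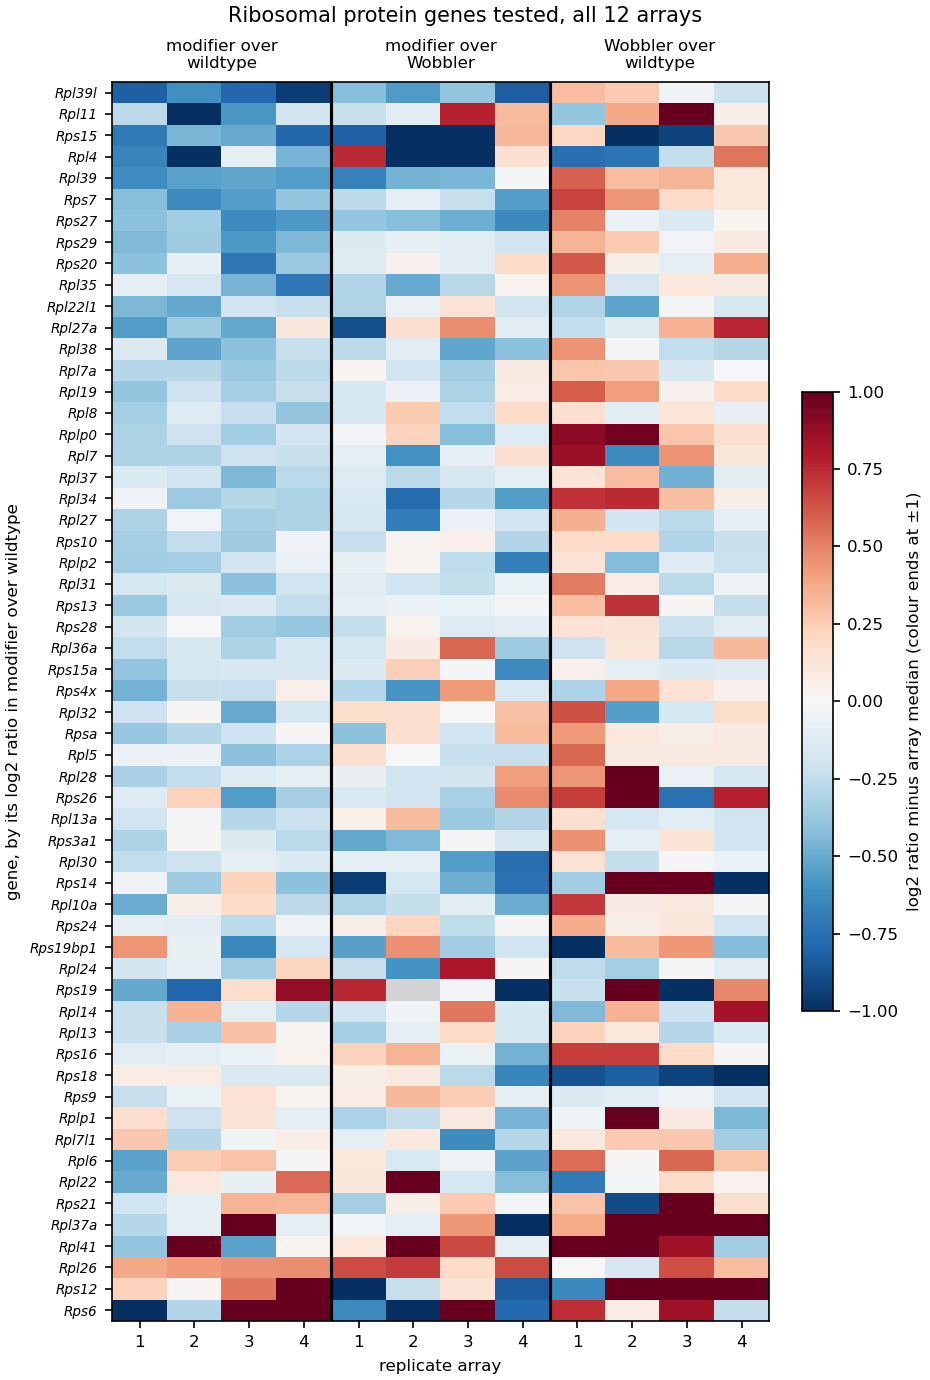
Log2 ratio minus the array median (colour, blue negative and red positive, ending at ±1) for the 58 tested ribosomal protein genes (rows, ordered by their fitted ratio in modifier over wildtype) on the 12 arrays (columns, 4 replicates per comparison; grey is a missing value). Rpl39l stands in the first row, 32 genes are blue across all 4 columns of modifier over wildtype, and Rps18 is blue across all 4 columns of Wobbler over wildtype.

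The second comparison sets testis with the modifier against Wobbler testis, so that both carry the Wobbler mutation. The ribosomal protein genes again lay slightly below the other features, and none passed the test. Of 58 genes, 0 were called, where 0.414% of all features were called, 0.299% lower and 0.115% higher. At an unadjusted p under 0.05, 6 genes were lower, against 4.47% of all features, and 1 was higher, against 7.03%. The median log2 ratio of the genes was -0.07, against 0.08 for all features, and 40 were negative (69.0%), against 38.4% of all features.

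On replicates 1 to 4 of modifier over Wobbler the genes' median minus the array median was -0.16, -0.09, -0.12 and -0.17. The mean was -0.14 ± 0.03 (SD, n = 4 arrays), with -0.13 on the arrays with the modifier in Cy5 and -0.15 on the others. All 4 arrays were thus on the same side, each by less than the smallest difference in modifier over wildtype. Below the array median on every array lay 15 of 58 genes (25.9%), against 9.99% of all features, and above it on every array lay 2 (3.45%), against 8.77%. With each array left out in turn, 17 to 23 genes lay below on the remaining 3 arrays (29.3% to 39.7%), against 15.5% to 16.6% of all features. These counts were bound to be at least 15.

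Rpl39l had -0.26, -0.38, -0.47 and -0.86 in modifier over Wobbler, again negative on every array. Its fitted value was -0.49 ± 0.11 (SE, n = 4 arrays) with a limma adjusted p of 0.0922, the smallest among the 58 genes. Rps27 had -0.23, -0.24, -0.57 and -0.68 (fitted -0.43 ± 0.12 SE, adjusted p = 0.193). Rpl39 had -0.52, -0.29, -0.53 and -0.05 (fitted -0.35 ± 0.13 SE, adjusted p = 0.351). Rpl39l minus Rpl39 took both signs, at 0.26, -0.09, 0.06 and -0.81, with a mean of -0.15 ± 0.47 (SD, n = 4 arrays) and an exact two-sided permutation p of 0.75. Rps29 had 0.03, 0.10, -0.18 and -0.23, so its sign followed the dye.

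The third comparison asks how Wobbler testis differs from wildtype testis without the modifier. Here the ribosomal protein genes did not lie below the other features. Of 58 genes, 1 was lower, 0 were higher and 57 did not pass, where 0.306% of all features were called, 0.183% lower and 0.122% higher. At an unadjusted p under 0.05, 2 genes were lower, against 8.47% of all features, and 7 were higher, against 7.22%. Their median log2 ratio was 0.06, against -0.01 for all features, and 21 were negative (36.2%), against 50.8% of all features. The genes' median minus the array median was 0.28, 0.09, 0.03 and 0.01 on replicates 1 to 4, a mean of 0.10 ± 0.12 (SD, n = 4 arrays). The arrays with Wobbler in Cy5 gave 0.19 and those with Wobbler in Cy3 gave 0.02, so most of the displacement came from 1 orientation and from replicate 1. Above the array median on every array lay 10 genes (17.2%), against 10.4% of all features, and below it on every array lay 4 (6.9%), against 10.1%. With each array left out in turn, 4 to 10 genes lay below on the remaining 3 arrays (6.9% to 17.2%), against 15.9% to 17.3% of all features. Above lay 13 to 16 (22.4% to 27.6%), against 16.1% to 17.5%.

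Rps18 (gene body chr17:33951998-33955665 in GRCm38.p6), a protein of the head of the small subunit, was the gene that passed. Its log2 ratios in Wobbler over wildtype were -0.75, -0.78, -1.16 and -1.29. Every array was below every other array of Rps18 in the study. It fell by 0.995 ± 0.102 on the log2 scale (SE of the fit, n = 4 arrays), with a limma adjusted p of 0.00255, and 1.49% of all features were lower. It rests on 1 probe. In modifier over wildtype the same probe had 0.24, 0.21, -0.34 and -0.24, and in modifier over Wobbler it had 0.22, 0.29, -0.34 and -0.69, where the sign followed the dye in both.

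The 3 ratios of Rps18 left a gap around the loop of genotypes that did not pass the test. From Wobbler over wildtype and modifier over wildtype, an indirect modifier over Wobbler ratio of 0.96 is computed, and the direct one was -0.13. The direct minus the indirect value was -1.09 ± 0.18 (SE), with an adjusted p of 0.187. With 2 genotype coefficients that force the loop to close, Rps18 in Wobbler over wildtype was at -0.63 with an adjusted p of 0.429. The call was also lost without the dye term (adjusted p = 0.0919) and when the 4 arrays were fitted alone (adjusted p = 0.736). It was kept when each of the 12 arrays was left out in turn. Over the 58 ribosomal protein genes the direct minus the indirect value had a median of 0.189, against 0.085 for all features. The direct ratio was thus mostly higher than the other comparisons give. An unadjusted limma p under 0.05 was found for 7 genes (12.1%), against 6.95% of all features, and 0 passed, against 4 of 14729.

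**Figure D3:**
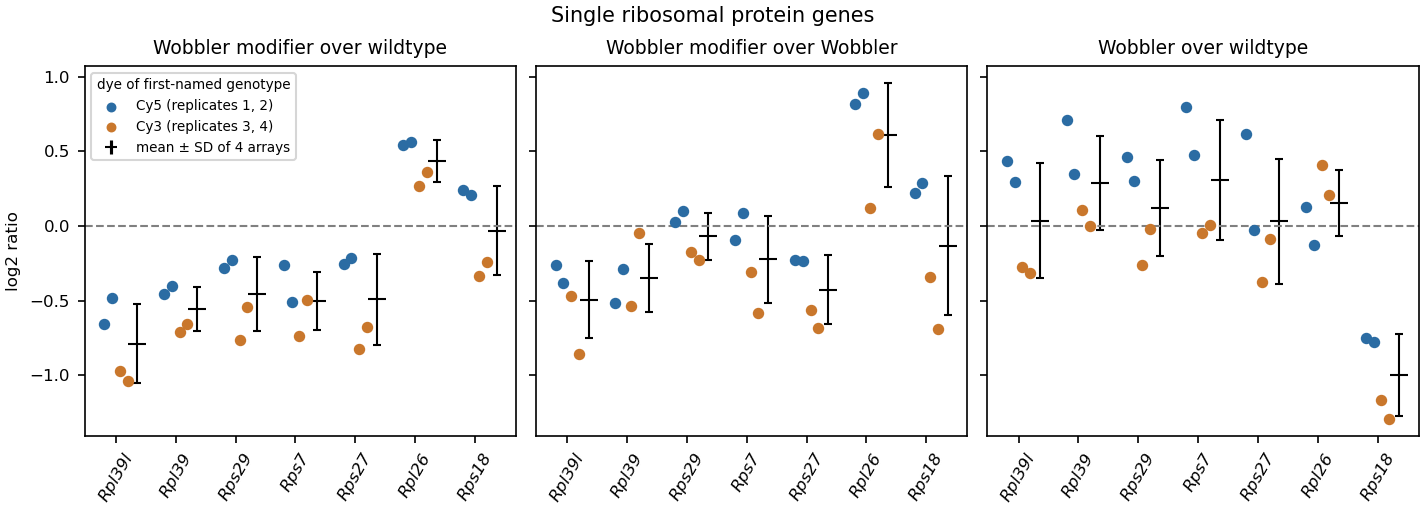
Log2 ratio (vertical axis) of 7 ribosomal protein genes (horizontal axis) on each of the 4 arrays of a comparison, coloured by the dye of the first-named genotype, with the mean ± SD in black. Rpl39l is negative on all arrays of both modifier comparisons and takes both signs in Wobbler over wildtype (0.44, 0.30, -0.27 and -0.32), where Rps18 lies at -1.29 to -0.75; the blue points lie above the orange ones for most genes.

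Rpl39l in Wobbler over wildtype had 0.44, 0.30, -0.27 and -0.32, positive with Wobbler in Cy5 and negative with Wobbler in Cy3. The fitted value was 0.04 ± 0.11 (SE, n = 4 arrays), with an adjusted p of 0.884. Rpl39 had 0.71, 0.35, 0.11 and 0.00 (fitted 0.29 ± 0.13 SE, adjusted p = 0.318). Rpl39l minus Rpl39 was -0.28, -0.05, -0.38 and -0.31, a mean of -0.26 ± 0.14 (SD, n = 4 arrays), negative on 4 of 4, with an exact two-sided permutation p of 0.125. Each comparison shares a genotype with each of the others, so their values are not independent. The dye term of the fit had a median of 0.19 over the ribosomal protein genes, against 0.15 over all features, and 0 of the 58 dye terms passed the test, against 1 of 14729 over all features. An unadjusted p under 0.05 was found for 23 of the 58 (39.7%), against 21.8% of all features.

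Several other ribosomal protein genes with a high ratio in Wobbler over wildtype differed between their probes. Rpl37a, a zinc-binding protein of the large subunit, had 0.49, 1.63, 2.34 and 0.93, but its 2 probes averaged 2.94 and -0.24. Rps12, of the small subunit, had -0.52, 3.09, 1.07 and 1.42, and its 2 probes averaged 3.68, from 3 arrays, and -0.10. Rplp0, of the stalk, had 1.02, 1.01, 0.04 and 0.06, its probes averaging 0.97 and 0.10. The high values of each gene thus came from 1 of its probes. Rpl41 and Rpl28, of the large subunit, also had high ratios, with 1 probe each, and were picked out after their values were seen. Rpl41 had 1.58, 1.51, 0.61 and -0.46 (fitted 0.81 ± 0.42 SE, adjusted p = 0.374). Rpl28 had 0.57, 2.85, -0.30 and -0.27 (fitted 0.71 ± 0.37 SE, adjusted p = 0.378). Both took either sign over the arrays and did not pass. In Rps21 1 of 5 probes averaged 3.37 from 2 arrays, where the others lay between -0.32 and -0.12.

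Such gaps were common. Of 24 ribosomal protein genes with several probes, 7 had probes over 0.5 apart in modifier over wildtype, 11 in modifier over Wobbler and 10 in Wobbler over wildtype. In any comparison it was 16 of 24, among them Rps6, the target of S6 kinase, with probes at 1.62 and -0.20 in modifier over wildtype. Rpl11, which in human cells binds MDM2, had probes at -1.49 and -0.27 in that comparison. The 34 tested genes with 1 probe had a median log2 ratio of -0.22 in modifier over wildtype, and the 24 with several had -0.19. Ribosomal protein genes have many near-identical processed pseudogenes, and how far a cDNA probe reads those copies was not tested.

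The tested paralogs were Rpl39l, Rpl22l1 and Rpl7l1. Rpl39l and Rpl22l1 had negative ratios on every array of modifier over wildtype, and Rpl7l1 had 0.43, -0.16, -0.22 and -0.04. Rpl22l1 in Wobbler over wildtype was also negative on every array, at -0.18, -0.49, -0.26 and -0.27 (fitted -0.30 ± 0.10 SE, adjusted p = 0.233), where Rpl39l was not. Rpl22, the parent of Rpl22l1, had -0.34, 0.24, -0.26 and 0.47 in modifier over wildtype, with a fitted value of 0.03.

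Over the 12 arrays, the genes whose turned log2 ratios were most like those of Rpl39l, among 8044 genes with a value on all of them, were Amigo2, a cell adhesion protein (Pearson r = 0.967), Me1, the cytosolic malic enzyme (0.962), Stard6, a lipid transfer protein of male germ cells (0.962), Fam205c (0.952) and Psma6, a subunit of the proteasome (0.951). Among ribosomal protein genes the closest were Rps7 (0.941) and Rps29 (0.912). These correlations describe 12 arrays that share dye orientation and channels, and Amigo2 had fitted ratios of -1.28 in modifier over wildtype, -1.01 in modifier over Wobbler and -0.30 in Wobbler over wildtype.

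Genes that work beside the ribosomal proteins were taken from lists. The proteins of the mitochondrial ribosome, named Mrpl and Mrps, had a median log2 ratio of -0.02 in modifier over wildtype over 60 tested genes, with 32 negative and 0 called. In modifier over Wobbler their median was 0.04, with 1 lower, Mrpl30 at -1.94 ± 0.31 (SE, adjusted p = 0.0335), and in Wobbler over wildtype it was -0.03 with 0 called. The 53 tested ribosome biogenesis factors had medians of 0.03, 0.07 and -0.07 in the same order of comparisons, with 0 called in each. Wdr12, needed to process the RNA of the large subunit, was at -0.43 in modifier over wildtype (adjusted p = 0.429), and Ubtf, which opens ribosomal DNA to RNA polymerase I, at 0.60 in Wobbler over wildtype (adjusted p = 0.147). Their medians lay closer to that of all features than the median of the cytosolic ribosomal proteins in modifier over wildtype, and this difference was not tested.

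A further list held translation factors and other genes whose messenger RNAs carry the same pyrimidine start. Its 18 tested genes had a median log2 ratio of -0.11 in modifier over wildtype, with 14 negative and 1 lower. That gene was Naca, which binds new proteins at the tunnel exit, at -0.61 ± 0.10 (SE, adjusted p = 0.0233). Eef1d and Eef1g, parts of the elongation factor 1 complex, were at -0.51 and -0.61 with adjusted p of 0.121 and 0.181. In modifier over Wobbler the list's median was 0.02 and in Wobbler over wildtype 0.20, with 0 called in each. Fau, the precursor of a small-subunit protein outside the symbol rule, was at 0.00 in modifier over wildtype with an SE of 0.45.

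**Figure D4:**
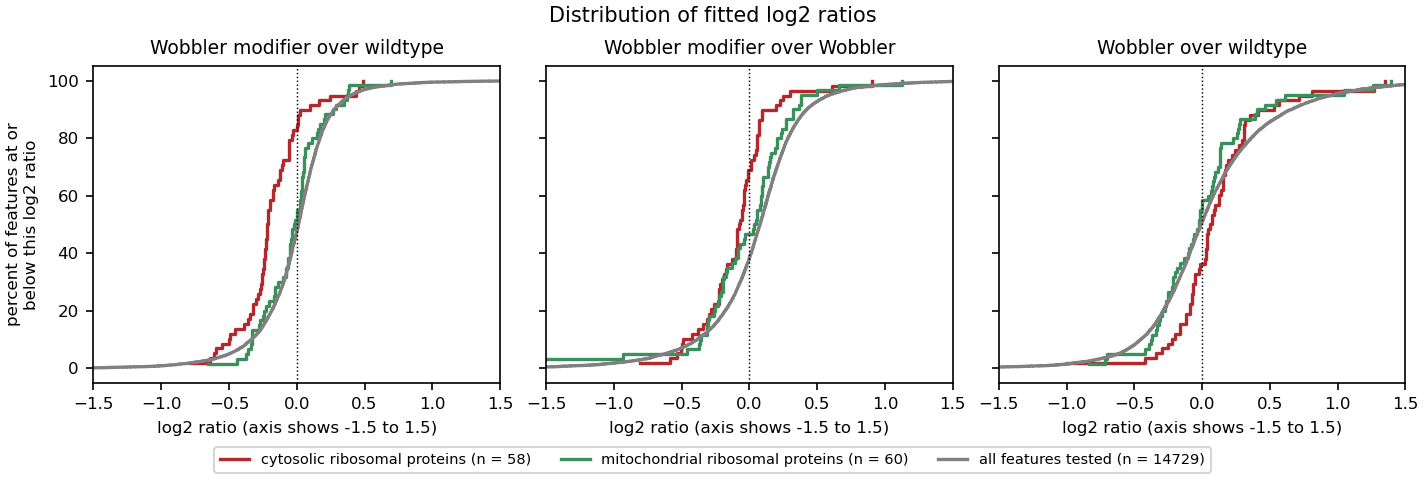
Percent of features at or below a given fitted log2 ratio (vertical axis) against that ratio (horizontal axis, cut at ±1.5) for cytosolic ribosomal proteins (red), mitochondrial ribosomal proteins (green) and all features tested (grey). In modifier over wildtype the red line crosses 50% at -0.22, the green line at -0.02 and the grey line at 0.01. In Wobbler over wildtype the red line crosses 50% to the right of the others, at 0.06.

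Some markers of testis cell types were lower in both modifier comparisons. The late spermatid list holds genes for the packaging of sperm DNA and for the sperm tail, among others. Of its 23 tested genes, 9 were lower in modifier over wildtype with a median log2 ratio of -0.76. In modifier over Wobbler 5 were lower with a median of -0.51. In Wobbler over wildtype the median was 0.05, with 0 called. Their median minus the array median was -0.93 to -0.60 on the arrays of modifier over wildtype, where that of the ribosomal protein genes was -0.30 to -0.18. The 9 Leydig cell genes had medians of -0.64 with 2 lower, -0.50 with 1 lower and 0.08 with 0 called. Of the macrophage list 1 of 8 was lower in modifier over wildtype, Tyrobp, and of the meiotic list 1 of 5, Syce2. The spermatogonia, Sertoli and blood lists had 0 called of 8, 11 and 3 tested genes in every comparison, with medians of 0.09, -0.12 and -0.06 in modifier over wildtype. The part of cell composition in the ratios of the ribosomal protein genes was not tested, and in bulk testis RNA fewer cells of a type and less RNA per cell cannot be told apart.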

How the data were processed

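The authors deposited 1 log2 ratio per probe and array, per the file headers and values; their normalization is not given in the sources used here. One repeated value per array above 15, on 22 to 165 spots, was read as a code and set missing. Ratios were read as Cy5 over Cy3, so replicates 3 and 4 were multiplied by -1. The 3 comparisons then closed their loop better (correlation 0.13, against 0.01 as channel 1 over channel 2, over 14729 features). Reversing the sign of every ratio leaves this correlation the same, so it cannot tell Cy5 over Cy3 from Cy3 over Cy5. Of 20355 probes 14030 had 1 symbol, 5 had several and 6320 had none; probes of a symbol were averaged. Features needed values on 3 of 4 arrays of every comparison.

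The fit used limma 3.58.1 (lmFit, eBayes; R 4.3.3) with a mean per comparison and a dye term over all 12 arrays. An SE is that of this fit, which gives each feature 1 spread over all 12 arrays. It is not the spread of the 4 arrays of a comparison. The p-values were Benjamini-Hochberg adjusted over all features. The fit was also run on simulated independent normal noise with added changes and no dye effect. That run checks the code and cannot show how the fit handles dye effects or shared pools. Replicate numbers did not pair the arrays (correlations of deviations -0.03 to 0.07, 0 of 12 over 0.1). The genes named passed the test, are paralogs or their parents, had the smallest p with 1 sign on all arrays (up to 6 per direction), had discordant probes or stood on a list. Genes, lists and tests were chosen with earlier results of these data known. Alternatives changed centring, scaling, dye term, filter, model, weights, probes, direction and arrays. No signal intensities were used, so dim spots could not be left out.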

Additional observations from a re-analysis of the deposited data

Results flagged for a closer look

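For the named ribosomal protein genes and for the genes' median, 116 sets of 4 arrays (1 per comparison) were examined, and 4 held an array far from the others. Chance gives about 1 in 20 sets, so 4 of 116 is no more than chance gives. In Wobbler over wildtype, replicate 1 stood apart for Rpl22 at -0.581 (the others -0.07 to 0.03), for Rpl35 at 0.572 (-0.13 to -0.01) and for Rplp2 at 0.264 (-0.40 to -0.32). In modifier over Wobbler, replicate 4 of Rpl37a was at -1.723 (0.09 to 0.36). No one of these genes passed the test in that comparison.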

How the results depend on the processing

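The median log2 ratio of the ribosomal protein genes was negative in both modifier comparisons under every alternative run except the other reading of the ratios. In Wobbler over wildtype it was -0.01 with the loop model. Read as channel 1 over channel 2, it was 0.124 and 0.126 in the modifier comparisons, against 0.148 and 0.12 for all features. It thus lay near the median of all features in these comparisons. In Wobbler over wildtype it was 0.231 in that reading, against 0.166 for all features. In that reading Rpl39l in modifier over wildtype was 0.219, Rps18 in Wobbler over wildtype was 0.232, and 0 features, 0 ribosomal protein genes and 0 paralogs were called in any comparison. Leaving out 1 array at a time, the median was -0.246 to -0.188 in modifier over wildtype, -0.1 to -0.039 in modifier over Wobbler and -0.003 to 0.078 in Wobbler over wildtype.

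The calls of single genes depended on the fit. In modifier over wildtype, scaling to equal spread gave 483 features, 7 ribosomal protein genes (Rpl39l, Rpl39, Rps7, Rps27, Rps29 and Rpl22l1 lower, Rpl26 higher) and 2 paralogs. Array weights gave 752 features, 8 of these genes (the same 7 and Rpl7a) and 2 paralogs. The loop model gave 224 features and 2 genes, Rpl39l and Rps27. The fit with no dye term gave 46 features, 0 genes and 0 paralogs, and each comparison fitted alone gave 0 of each. In modifier over Wobbler, no dye term gave 7 features, fitting alone 0, and the loop model 207 features, 2 genes (Rpl39l and Rps27) and 1 paralog. In Wobbler over wildtype, scaling gave 23 features, array weights 21 and no dye term 24 with 0 ribosomal protein genes. Fitting alone and the loop model gave 0 and 0 there, and 1 probe per gene gave 72 features and 2 genes, Rplp0 and Rps18. With the replicate number as a block, 58, 24 and 22 features were called in the 3 comparisons in the order above, the calls of ribosomal protein genes were the same in number, and the loop difference was called for 1 feature in place of 4. The numbers do not pair the arrays, and 4 of 12 arrays correlated best with their own number.

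Leaving out 1 array at a time gave 20 to 154 features, 0 to 1 ribosomal protein genes and 0 to 1 paralogs in modifier over wildtype, with 20 to 49 features and 0 of these genes without any 1 of its own arrays. It gave 0 (without replicate 2 of that comparison) to 128 features (without replicate 2 of Wobbler over wildtype) in modifier over Wobbler, and 18 (without replicate 3) to 54 in Wobbler over wildtype. Counts over the remaining arrays cannot be smaller than those over all 4. Genes below the array median on every remaining array numbered 17 to 23 in modifier over Wobbler, where 15.5% to 16.6% of all features lay there, and 4 to 10 in Wobbler over wildtype, against 15.9% to 17.3%. The highest count, 10 of 58 (17.2%), is at that share. Above it they numbered 2 to 4, against 14.4% to 16.4% of all features, and 13 to 16, against 16.1% to 17.5%. Rpl39l minus Rpl39 in modifier over Wobbler was -0.28 to 0.076, the last without replicate 4. The cause of these changes was not tested. With 4 arrays a comparison and no intensities, small shifts of single genes cannot be resolved.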
